A study of Mus musculus with 10 samples.

Results

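TREM receptors and their DAP12-SYK signaling partners were followed in RAW264.7 cells, an established mouse macrophage line, by RNA sequencing. The 7 genes are Trem1, Trem2, Treml2 and Treml4, which encode receptors of the TREM family, Tyrobp, which encodes the adaptor DAP12, Clec5a, which encodes a C-type lectin receptor that also pairs with DAP12, and Syk, which encodes the kinase that docks on DAP12. They were chosen by symbol, among 43432 genes counted in every library, and all 7 were among the 14172 genes tested. Treml2 passed the count filter only through libraries with lipopolysaccharide.

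TREM1, TREM2 and other TREM receptors with short cytoplasmic tails signal through DAP12, a small membrane adaptor whose immunoreceptor tyrosine-based activation motif (ITAM) is phosphorylated by SRC family kinases and then recruits SYK. TREM1 is known as an amplifier of the macrophage and neutrophil response to bacterial products. TREM2 binds lipids and lipoproteins, is carried by resting macrophages, microglia and osteoclasts, and is known to restrain cytokine release in macrophages. TREML4 binds dying cells, and TREML2, which is not known to pair with DAP12, has been placed on macrophages and lymphocytes. CLEC5A is a myeloid receptor for viral and bacterial sugars.

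Compound **1** is 9-keto-hexadec-7-enoic acid in the 7(E) form, a fatty acid that carries an α,β-unsaturated carbonyl. RAW264.7 cells were held in 5 conditions, each with 2 libraries. Control cells received the solvent, 0.5% DMSO, without lipopolysaccharide (DMSO), or the solvent followed by LPS at 1 µg/mL (DMSO + LPS). Treated cells received **1** at 3.2, 10 or 32 µM for 1 h before the same LPS, RNA was collected after 12 h, and no condition held **1** without LPS. All values are from 1 cell line, and the labels number biological replicates without saying whether they were separate cultures, so that p-values measure the spread between these libraries, which may be technical.

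Library totals lay between 45966803 and 58976377 counts. All 10 macrophage markers on a fixed list, led by Lyz2, were above 1 CPM (read counts scaled to a common library total) in the mean over the 10 libraries. Their summed level did not overlap between conditions. It was 11140 to 12030 CPM in DMSO, 10440 to 10560 CPM in DMSO + LPS, 9724 to 9883 CPM at 3.2 µM, 8636 to 9372 CPM at 10 µM and 8125 to 8515 CPM at 32 µM. Of 5 T and NK cell markers, 4 (Cd3e, Cd8a, Ncr1 and Klrb1c) were at 0 in every library, and the 4 B cell markers summed to at most 0.464 CPM. Of 5 neutrophil markers only S100a8 reached 1 CPM in the mean over the 10 libraries. The sums of these markers were 0.599 to 1.09 CPM in DMSO, 6.33 to 6.55 CPM in DMSO + LPS and 1.59 to 2.49 CPM at 32 µM. Of 3 dendritic cell markers 2 were above 1 CPM in that mean, led by Xcr1, with sums of 2.02 to 2.06 CPM in DMSO and 7.14 to 7.94 CPM in DMSO + LPS. Of 4 mast cell and platelet markers 1, Pf4, was above it. Their sums were 2.52 to 3.06 CPM in DMSO, 3.95 to 4.68 CPM in DMSO + LPS and 9.20 to 11.3 CPM at 32 µM. Replicate 2 at 32 µM stood apart, with 2.58% of its counts on a pair of ribosomal RNA-like features (Gm42418 and Gm26917) against 0.0695 to 0.232% in the other 9 libraries. Replicate 1 at 10 µM held 33.1 CPM of fibroblast and epithelial markers, mainly Krt8, against 0.133 CPM in its partner, and replicate 1 at 3.2 µM held 5.22 CPM against 0.180 CPM. The part of these markers in the results was not tested.

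Trem1 (ENSMUSG00000042265) lies on the plus strand of chromosome 17 of GRCm38, from 48232768 to 48246924. The other TREM genes of the 7 follow on the same strand, Treml4 (ENSMUSG00000051682) from 48264295 to 48275360, Treml2 (ENSMUSG00000071068) from 48299498 to 48312533 and Trem2 (ENSMUSG00000023992) from 48346401 to 48354147. Trem1 and Trem2 thus mark the ends of a stretch of 121380 bp. Tyrobp (ENSMUSG00000030579) lies on chromosome 7 from 30413760 to 30417585, Clec5a (ENSMUSG00000029915) on the minus strand of chromosome 6 from 40574894 to 40585821, and Syk (ENSMUSG00000021457) on chromosome 13 from 52583173 to 52648792. Trem1 overlaps an antisense pseudogene, AC241601.2, which was not among the genes counted. The study names a directional library kit. Whether reads were counted by strand is not given in the sources used here, so reads of this pair may not have been told apart.

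Promoter sequences are shown for the 3 TREM genes that LPS changed in these cells, since these neighbors moved in different directions. Each is the 250 bases before the RefSeq start of the gene (GRCm38.p6), written 5′ to 3′ on the gene's strand, and capitals mark matches to the motifs searched on both strands. RefSeq promoters were found for 5 of the 7 genes.
Trem1, chr17:48232489-48232738: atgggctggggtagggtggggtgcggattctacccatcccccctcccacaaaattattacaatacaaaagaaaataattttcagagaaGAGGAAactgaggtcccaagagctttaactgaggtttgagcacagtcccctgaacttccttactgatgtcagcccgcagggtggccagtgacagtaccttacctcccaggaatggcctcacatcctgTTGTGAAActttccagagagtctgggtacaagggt
Treml4, chr17:48264045-48264294: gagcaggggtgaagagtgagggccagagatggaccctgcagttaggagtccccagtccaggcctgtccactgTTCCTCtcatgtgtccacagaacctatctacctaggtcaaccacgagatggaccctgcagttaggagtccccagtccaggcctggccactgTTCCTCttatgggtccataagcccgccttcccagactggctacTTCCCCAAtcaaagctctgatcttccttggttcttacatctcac
Trem2, chr17:48346151-48346400: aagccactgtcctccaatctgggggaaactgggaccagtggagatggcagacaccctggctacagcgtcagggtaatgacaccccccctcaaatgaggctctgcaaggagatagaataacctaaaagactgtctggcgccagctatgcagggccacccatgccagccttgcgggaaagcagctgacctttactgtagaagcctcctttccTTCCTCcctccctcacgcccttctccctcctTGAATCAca

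All 3 promoters held the core of the site for PU.1, the myeloid lineage factor, GAGGAA, which 23.3% of 32851 RefSeq promoters hold in the same window. Its matches lay 162 bases before the start of Trem1, 40 before that of Trem2, and 178 and 87 before that of Treml4. The C/EBP motif TTNNGNAA, held by 36.8% of promoters, matched 35 bases before the start of Trem1 and 44 before that of Treml4. Trem2 held instead a match to the AP-1 motif TGANTCA 9 bases before its start, which 6.75% of promoters have. The other motifs searched, the antioxidant response element TGACNNNGC (10.2% of promoters), the interferon-stimulated response element (2.98%) and the κB consensus (7.25%), matched none of these 3 windows, which says only that these letters are not in them. The promoter of Clec5a, which was not called with LPS, held PU.1 cores 81 and 55 bases before its start and a C/EBP match 120 before it. Of the Syk promoters, that starting at 52596632 held both motifs and that starting at 52583187 neither. A link of these motifs to the direction of change was not tested.

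LPS raised Trem1, Treml4 and Syk and lowered Trem2. The receptor known for amplifying inflammation and the receptor known for restraining it thus changed in opposite directions, each about as far as the other on the log2 scale. Of the 7 genes, 3 were called higher and 1 lower in DMSO + LPS than in DMSO, where a call needs a 1.5-fold change and a Benjamini-Hochberg adjusted p below 0.05 in edgeR's quasi-likelihood test. Of all genes tested 28.2% were called in this comparison, 14.6% higher and 13.6% lower. In bulk RNA, fewer cells of a kind and less RNA per cell cannot be told apart.

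Trem1 was at 8.33 and 8.23 CPM in the DMSO libraries and at 33.9 and 32.7 CPM in DMSO + LPS. Both LPS libraries lay far above both controls. The rise was 4.02-fold (log2 fold change 2.01, standard error 0.063, edgeR adjusted p = 1.05e-07).

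Trem2 was at 307.1 and 289.0 CPM in DMSO and at 78.1 and 81.6 CPM in DMSO + LPS. No LPS library came near the controls. The level fell 3.73-fold (log2 fold change −1.90, standard error 0.067, edgeR adjusted p = 2.09e-07).

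Treml4, the lowest of these 3 genes in LPS, was at 5.85 and 4.69 CPM in DMSO and at 13.7 and 11.4 CPM in DMSO + LPS, again without overlap. It rose 2.38-fold (log2 fold change 1.25, standard error 0.12, edgeR adjusted p = 7.21e-05). Syk was at 195.0 and 202.7 CPM in DMSO and at 427.2 and 405.4 CPM in DMSO + LPS. It rose 2.09-fold (log2 fold change 1.07, standard error 0.054, edgeR adjusted p = 1.42e-06). Without overlap between libraries in this comparison were 76.9% of all genes tested, so separation alone is common here.

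Clec5a moved little, from 215.1 and 227.4 CPM in DMSO to 265.7 and 255.5 CPM in DMSO + LPS. The change of 0.24 on the log2 scale passed the p threshold, as 50.9% of all genes did, but not the fold cutoff (edgeR adjusted p = 0.0136). It missed the p threshold without replicate 1 of DMSO (0.19, edgeR adjusted p = 0.0891) or of DMSO + LPS (0.21, edgeR adjusted p = 0.0947). Treml2 was barely detected. Its libraries held 5 and 1 counts without LPS and 14 and 8 counts with it, a difference that was not called (edgeR adjusted p = 0.0682). It was called by edgeR's likelihood ratio test (log2 fold change 1.96, adjusted p = 0.0301) and with a score of the level of short transcripts as a term in the edgeR fit (2.10, adjusted p = 0.0489). With counts this low, changes of Treml2 were hardly detectable at this depth.

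The scaling of the libraries moves this comparison. With library size alone in place of TMM, the median log2 fold change of all genes is −0.20 instead of 0.0026, and 35% instead of 51.9% of the calls are higher. The same 4 calls were made there, with log2 fold changes of 1.80 for Trem1, −2.11 for Trem2, 1.04 for Treml4 and 0.86 for Syk.

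**Figure D1:**
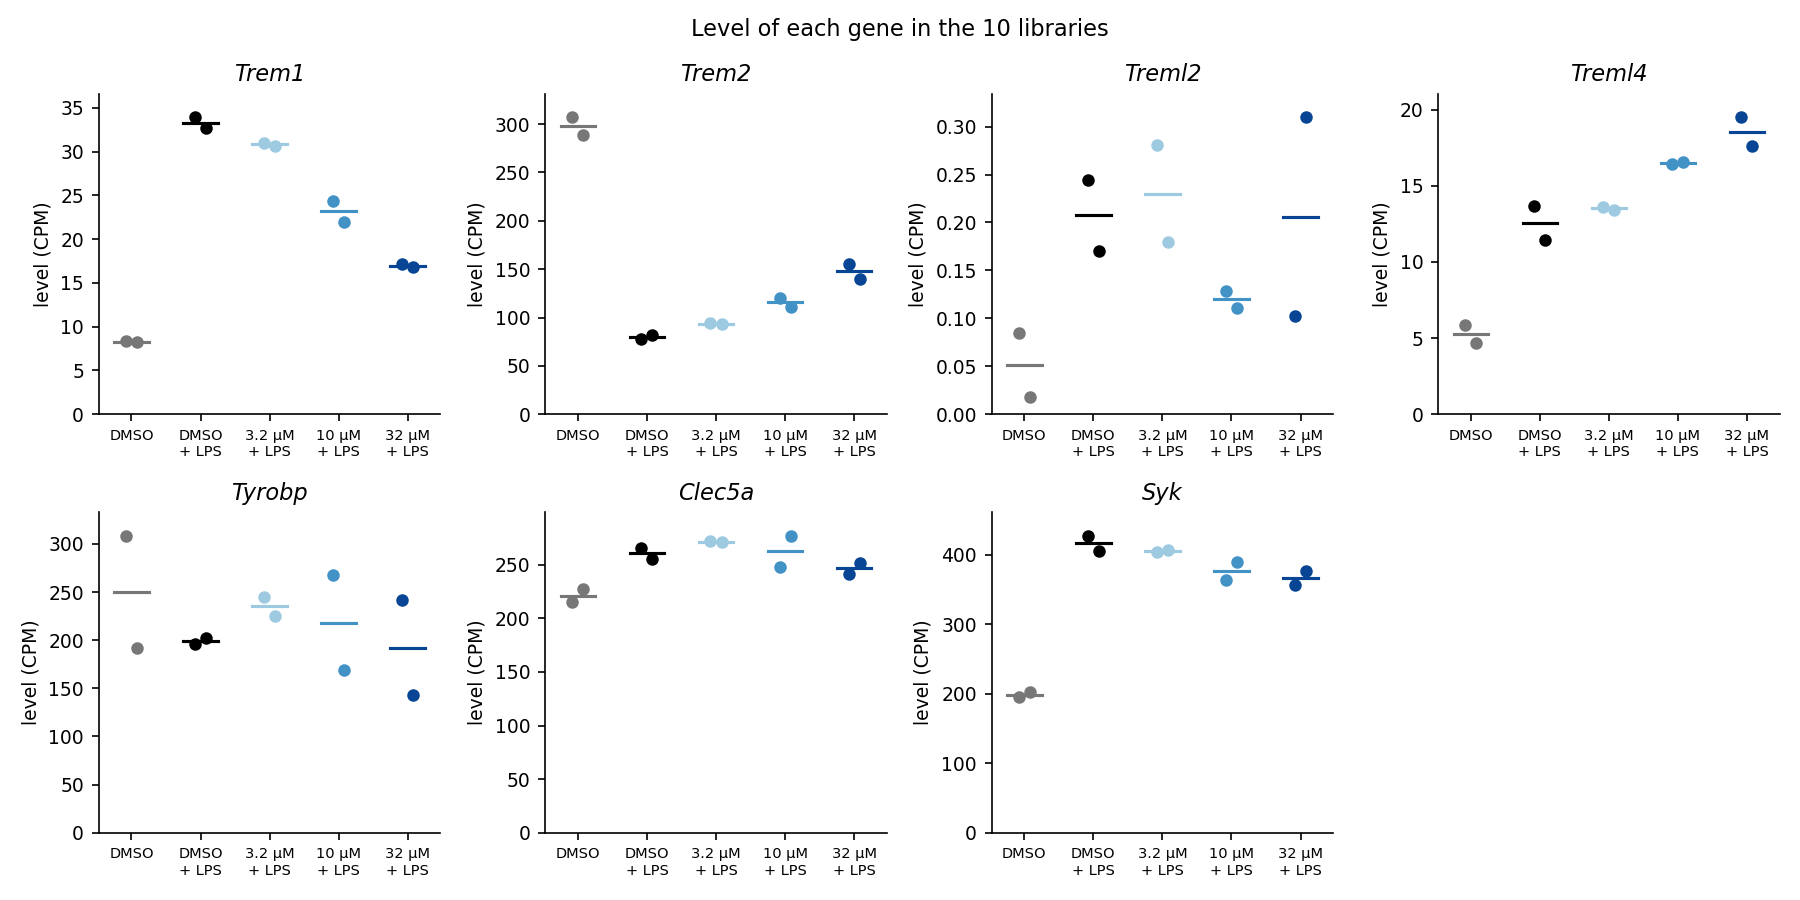
Level of each gene (CPM, linear axis from 0) in the 10 libraries by condition, with points for libraries and lines for means of 2. Trem1 steps down from 33.3 CPM in DMSO + LPS to 16.9 CPM at 32 µM while Trem2 steps up from 79.8 to 147.8 CPM, and the 2 Tyrobp libraries of a condition lie far apart in DMSO and at 10 and 32 µM.

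The libraries of Tyrobp, the gene of DAP12, lay far apart in DMSO and at 10 and 32 µM, and close together in DMSO + LPS and at 3.2 µM. Tyrobp was at 308.5 and 191.5 CPM in DMSO and at 195.6 and 201.8 CPM in DMSO + LPS. The 3.2 µM libraries held 244.8 and 225.6 CPM, the 10 µM libraries 267.4 and 169.4 CPM, and the 32 µM libraries 241.5 and 143.2 CPM. Tyrobp was called in none of these comparisons. With LPS its log2 fold change was −0.33 (95% confidence interval −1.05 to 0.39, edgeR adjusted p = 0.416), and at 32 µM against DMSO + LPS it was −0.047 (95% confidence interval −0.77 to 0.67, edgeR adjusted p = 0.969), or 0.28 without replicate 2 at 32 µM (edgeR adjusted p = 0.789). These intervals hold changes of more than 1.5-fold in both directions at 32 µM, so a stable DAP12 level is not shown.

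The Tyrobp transcript is short, with 597 nt in its longest coding form, and its level moved with that of other short transcripts. A short-transcript score was computed for each library as the median, over 489 protein-coding genes with transcripts under 1000 nt and without ribosomal protein genes or the 7 genes studied, of the log2 level less its mean over the 10 libraries. In 5 of 5 conditions the library with the higher score had the higher Tyrobp level. The same held for Trem2 in 5 of 5 conditions and for Trem1 in 4, for Treml2 and Treml4 in 3, for Clec5a in 1 and for Syk in 0, so this was not particular to Tyrobp. In DMSO the replicates scored −0.0061 and −0.42, and in DMSO + LPS −0.036 and 0.077. The 3.2 µM replicates scored 0.21 and 0.13, those of 10 µM scored 0.29 and −0.11, and those of 32 µM scored 0.13 and −0.26. With the score as a term in the fit, Tyrobp was called lower with LPS (log2 fold change −0.69, edgeR adjusted p = 5.87e-08), and at 32 µM its difference from DMSO + LPS was 0.048 (edgeR adjusted p = 0.519). What sets the score was not tested, and the Tyrobp call with LPS rests on that term. Without replicate 1 of DMSO the log2 fold change of Tyrobp with LPS was 0.051.

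**Figure D2:**
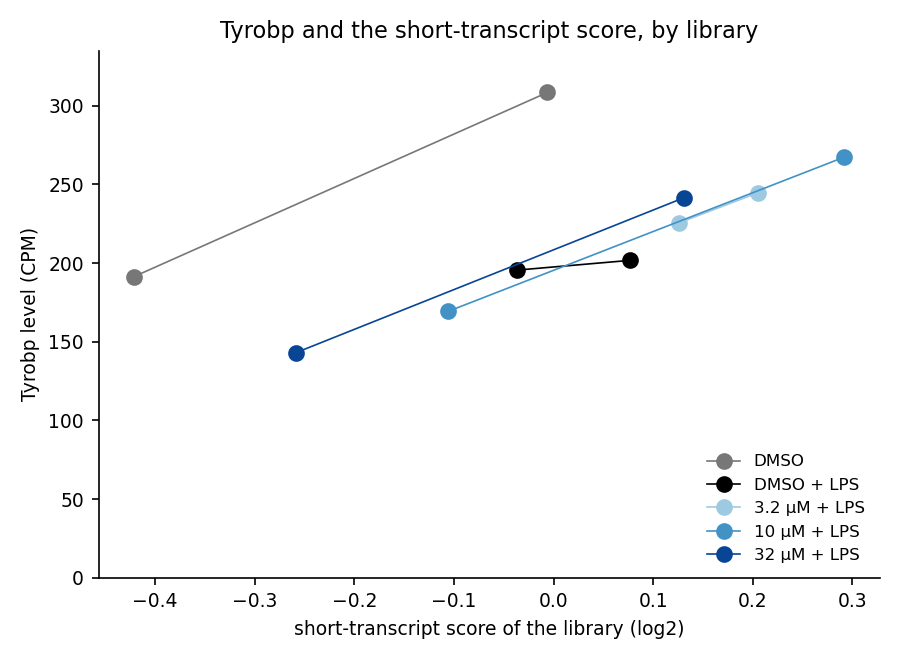
Tyrobp level (CPM, linear axis from 0) against the short-transcript score of each library (log2), with a line joining the 2 libraries of a condition. In every condition the library with the higher score lies higher, and the DMSO pair (308.5 and 191.5 CPM) lies above the LPS pairs at like scores.

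Compound **1** at 32 µM moved Trem1 and Trem2 back toward their levels without LPS. Of the 7 genes 1 was called higher and 1 lower than in DMSO + LPS, against 4.18% of all genes tested, of which 1.27% were called higher and 2.91% lower. Trem1 was at 17.1 and 16.8 CPM at 32 µM, roughly midway on the log2 scale between the DMSO and the DMSO + LPS libraries. It fell 1.97-fold from DMSO + LPS (log2 fold change −0.98, standard error 0.062, edgeR adjusted p = 4.22e-05). Without the library that stood apart, replicate 2 at 32 µM, the value was −0.96 (edgeR adjusted p = 0.000848).

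Trem2 was at 155.3 and 140.2 CPM at 32 µM, above both DMSO + LPS libraries and below both DMSO libraries. Libraries at 32 µM and in DMSO + LPS did not overlap for 50.0% of all genes tested. It rose 1.85-fold from DMSO + LPS (log2 fold change 0.89, standard error 0.067, edgeR adjusted p = 0.000110). Without replicate 2 at 32 µM the value was 0.96 (edgeR adjusted p = 0.000464). Neither call held at a 2-fold cutoff, since both changes were slightly smaller than that.

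Without replicate 2 at 32 µM, the genes of the lists named below as called at 32 µM against DMSO + LPS stayed called, other than Treml1.

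Against DMSO, the 32 µM libraries still carried most members at altered levels. Trem1 stayed 2.05-fold higher (log2 fold change 1.03, edgeR adjusted p = 4.90e-06) and Trem2 2.02-fold lower (log2 fold change −1.01, edgeR adjusted p = 7.29e-06). Called in this comparison were 4 of the 7 genes, 3 higher and 1 lower, against 27.1% of all genes tested, of which 13.9% were called higher and 13.3% lower. Without replicate 2 at 32 µM the same 4 were called, with log2 fold changes of 1.04 for Trem1, −0.94 for Trem2, 1.88 for Treml4 and 0.84 for Syk. With library size alone 34.7% instead of 51.1% of these calls are higher and the median of all genes is −0.18 instead of 0.019.

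Treml4 did not follow Trem1. It was at 19.5 and 17.6 CPM at 32 µM, above both DMSO + LPS libraries, and so moved further from its DMSO level. Its log2 fold change against DMSO + LPS was 0.56 (standard error 0.12, edgeR adjusted p = 0.0227), which at 1.48-fold lay just under the fold cutoff, and an adjusted p below 0.05 at any fold was found for 9.78% of all genes. Without replicate 1 of DMSO + LPS it was called (log2 fold change 0.70, edgeR adjusted p = 0.0405), while without replicate 2 of DMSO + LPS it did not pass the p threshold (0.44, edgeR adjusted p = 0.170). It did not pass either without replicate 1 (0.49, edgeR adjusted p = 0.118) or replicate 2 (0.63, edgeR adjusted p = 0.0532) at 32 µM, nor without replicate 1 (0.56, edgeR adjusted p = 0.0558) or replicate 2 (0.56, edgeR adjusted p = 0.0564) at 3.2 µM. Against DMSO it was 3.52-fold higher (log2 fold change 1.82, edgeR adjusted p = 9.16e-06).

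Syk, the kinase shared by these receptors, was at 356.3 and 376.5 CPM at 32 µM, below both DMSO + LPS libraries. The difference of −0.18 (95% confidence interval −0.31 to −0.058) did not pass after adjustment (edgeR adjusted p = 0.0797), nor did it without replicate 2 at 32 µM (−0.23, edgeR adjusted p = 0.133). Syk remained 1.84-fold higher than in DMSO (log2 fold change 0.88, edgeR adjusted p = 4.92e-06). Clec5a was at 241.3 and 252.1 CPM at 32 µM, with a difference from DMSO + LPS of −0.079 (95% confidence interval −0.22 to 0.065, edgeR adjusted p = 0.558), and of −0.11 without replicate 2 at 32 µM (edgeR adjusted p = 0.615). Treml2 had 5 and 14 counts at 32 µM and a difference of −0.031 with an interval from −1.62 to 1.56 (edgeR adjusted p = 0.994), and a difference of −1.01 without replicate 2.

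**Figure D3:**
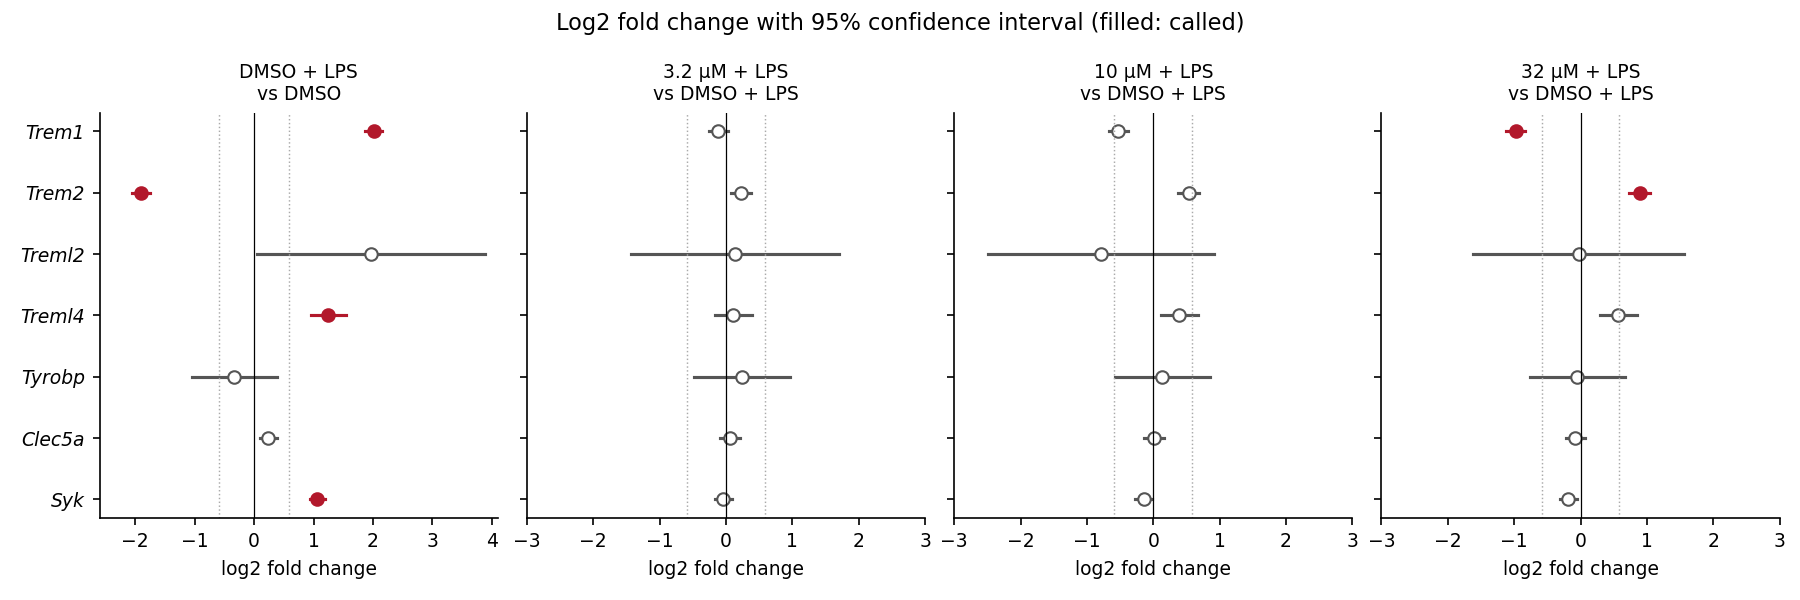
Log2 fold change of each gene with its 95% confidence interval in 4 comparisons (x axes, log2), filled and red where called, with dotted lines at 1.5-fold. With LPS the calls are Trem1, Trem2, Treml4 and Syk, and at 32 µM Trem1 (−0.98) and Trem2 (0.89), each opposite in sign to its change with LPS.

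The lower doses lay in between. At 10 µM Trem1 was at 24.3 and 22.0 CPM and Trem2 at 120.7 and 110.7 CPM. Both passed the p threshold and stayed under the fold cutoff, with log2 fold changes of −0.52 for Trem1 (edgeR adjusted p = 0.00478) and 0.54 for Trem2 (edgeR adjusted p = 0.00669), so that 0 of the 7 genes were called against 0.861% of all genes tested. An adjusted p below 0.05 at any fold, as these 2 genes had, was found for 2.67% of all genes. Without replicate 1 at 10 µM, the library with the epithelial markers, Trem1 was called (log2 fold change −0.60, edgeR adjusted p = 0.00955) and Trem2 had a value of 0.47 (edgeR adjusted p = 0.0311). Without replicate 1 of DMSO + LPS neither passed the p threshold (adjusted p = 0.0651 for Trem1 and 0.0899 for Trem2), and without replicate 2 of DMSO + LPS Trem2 did not (adjusted p = 0.0602).

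At 3.2 µM Trem1 was at 31.0 and 30.6 CPM and Trem2 at 93.9 and 92.9 CPM. Neither passed, with log2 fold changes of −0.11 for Trem1 (edgeR adjusted p = 0.999) and 0.23 for Trem2 (edgeR adjusted p = 0.927, unadjusted p = 0.0102). At this dose edgeR's quasi-likelihood test called 0 of 14172 genes (0.0%), while 600 (4.23%) had an unadjusted p below 0.05 and DESeq2 called 8 genes. Trem2 lay above both DMSO + LPS libraries at each dose, but libraries did not overlap with DMSO + LPS for 45.9% of all genes at 3.2 µM and for 35.8% at 10 µM. Treml4 was at 13.6 and 13.4 CPM at 3.2 µM and at 16.5 and 16.5 CPM at 10 µM, and its log2 fold change at 10 µM was 0.39 (edgeR adjusted p = 0.195), or 0.40 without replicate 1 at 10 µM (edgeR adjusted p = 0.362).

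Doses were also compared with each other. Trem1 was lower at 32 than at 10 µM by a log2 difference of −0.45 (edgeR adjusted p = 0.00823) and lower at 10 than at 3.2 µM by −0.41 (edgeR adjusted p = 0.0291). Trem2 was higher at 32 than at 10 µM by 0.35 (edgeR adjusted p = 0.0352), while the step of 0.31 between 3.2 and 10 µM did not pass (edgeR adjusted p = 0.112). These dose steps often missed the p threshold when 1 library was left out. That of Trem1 between 32 and 10 µM missed it without replicate 1 (adjusted p = 0.0502) or replicate 2 (adjusted p = 0.0692) at 32 µM, that of Trem1 between 10 and 3.2 µM missed it without any library other than replicate 1 at 10 µM (9 of 10, adjusted p up to 0.292), and that of Trem2 missed it without any library other than replicate 2 at 32 µM and replicate 1 at 10 µM (8 of 10, adjusted p up to 0.189). Each of these steps was under 1.5-fold, so 0 of the 7 genes were called, against 1.32% of all genes between 32 and 10 µM and 0.254% between 10 and 3.2 µM. An adjusted p below 0.05 at any fold was found for 2.76% of all genes in the first of these comparisons and for 0.903% in the second. Libraries did not overlap for 32.6% of all genes between 32 and 10 µM and for 34.2% between 10 and 3.2 µM. Over DMSO + LPS, 3.2, 10 and 32 µM the Trem1 libraries fell in order without overlap, which 2.58% of all genes tested did, and the Trem2 libraries rose in order without overlap, which 1.54% did.

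Levels per transcript length put the receptors on a common scale. The scale is CPM per kb of the longest coding transcript, and the order depends on that choice of transcript. Tyrobp was first in every condition, at 418.7 ± 138.6 CPM per kb (SD, n = 2) in DMSO and 332.8 ± 7.27 CPM per kb (SD, n = 2) in DMSO + LPS. In DMSO Trem2 came next, at 274.0 ± 11.8 CPM per kb (SD, n = 2), followed by Clec5a at 59.1 ± 2.32, Syk at 37.1 ± 1.02, Treml4 at 3.02 ± 0.472, Trem1 at 2.77 ± 0.0246 and Treml2 at 0.0129 ± 0.0120 CPM per kb (SD, n = 2 each). Treml4 and Trem1 were the only neighbors in this order whose libraries overlapped.

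With LPS the order after Tyrobp was Syk at 77.6, Trem2 at 73.4, Clec5a at 69.5, Trem1 at 11.1, Treml4 at 7.19 and Treml2 at 0.0521 CPM per kb, and no neighbors overlapped. From 3.2 µM on Trem2 again followed Tyrobp, at 85.9 CPM per kb against 75.6 for Syk at 3.2 µM. At 10 and 32 µM Syk and Clec5a overlapped, and Treml4 had passed Trem1. By the length of the union of all exons the order turned, since Trem2 at 29.9 CPM per kb then lay below Clec5a at 64.2 and Syk at 39.1 CPM per kb at 32 µM. At 32 µM Treml4 was at 10.6 ± 0.766 CPM per kb and Trem1 at 5.66 ± 0.0846 CPM per kb (SD, n = 2 each).

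The ratio of Trem2 to Trem1 per length sums up the opposed changes. It was 101.4 and 96.6 in the DMSO libraries and 6.33 and 6.86 in DMSO + LPS. The 3.2 µM libraries had ratios of 8.33 and 8.36, the 10 µM libraries 13.7 and 13.8, and the 32 µM libraries 24.9 and 23.0. The ratio thus rose with dose in every library without overlap between conditions, and at 32 µM it was still far under that of the DMSO libraries. Counted over the union of all exons, which for Trem2 includes a transcript with retained introns, the DMSO libraries had ratios of 22.3 and 21.3, those with LPS alone 1.40 and 1.51, and those of 32 µM 5.49 and 5.07. The ratio of Treml4 to Trem1 went from 1.21 and 0.977 in DMSO to 0.691 and 0.599 in DMSO + LPS and to 1.95 and 1.80 at 32 µM.

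**Figure D4:**
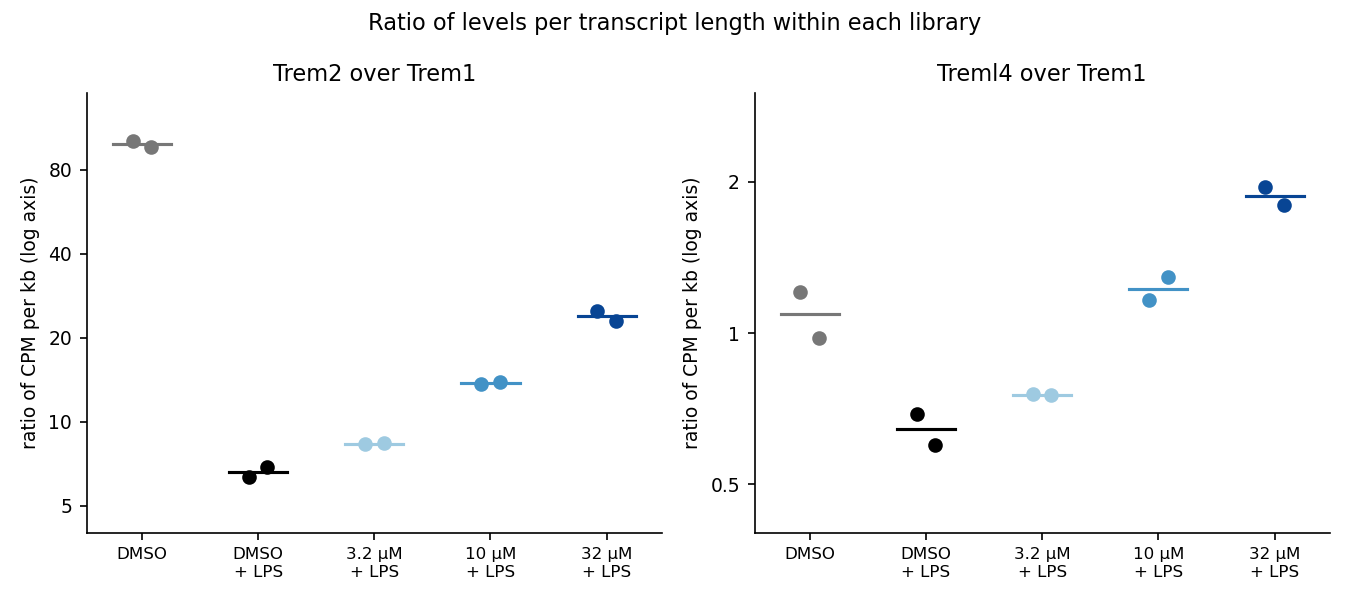
Ratio of Trem2 to Trem1 and of Treml4 to Trem1 in each library, from CPM per kb of the longest coding transcript (log axes), with lines for means of 2. Trem2 over Trem1 lies near 100 only in DMSO (101.4 and 96.6), and rises in order from 6.33 and 6.86 in DMSO + LPS to 24.9 and 23.0 at 32 µM.

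The other genes of the TREM cluster were read by position, a choice made after values were seen. Trem3, next to Trem1 and encoding another DAP12-coupled receptor, had 135 and 130 counts in DMSO and 759 and 688 in DMSO + LPS. It rose with LPS like Trem1 (log2 fold change 2.60, edgeR adjusted p = 1.05e-05), and at 32 µM its difference from DMSO + LPS was −0.36 (edgeR adjusted p = 0.267). Treml1, next to Trem2, had 88 and 87 counts in DMSO and 6 and 11 in DMSO + LPS. It fell with LPS like Trem2 (log2 fold change −3.17, edgeR adjusted p = 0.000271).

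At 32 µM Treml1 had 33 and 35 counts and was called higher than in DMSO + LPS (log2 fold change 2.11, edgeR adjusted p = 0.0140). That call was lost without replicate 1 of DMSO + LPS (edgeR adjusted p = 0.0951) and without replicate 2 at 32 µM (edgeR adjusted p = 0.0752). B430306N03Rik, between Treml2 and Trem2, had 15 and 17 counts in DMSO, 149 and 136 in DMSO + LPS and 286 and 226 at 32 µM. It rose with LPS (log2 fold change 3.30, edgeR adjusted p = 2.51e-06) and again at 32 µM (log2 fold change 0.98, edgeR adjusted p = 0.00524), a call lost without replicate 1 of DMSO + LPS (edgeR adjusted p = 0.0607). Of the genes of the cluster, Trem2 and Treml1 were called lower with LPS.

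**Figure D5:**
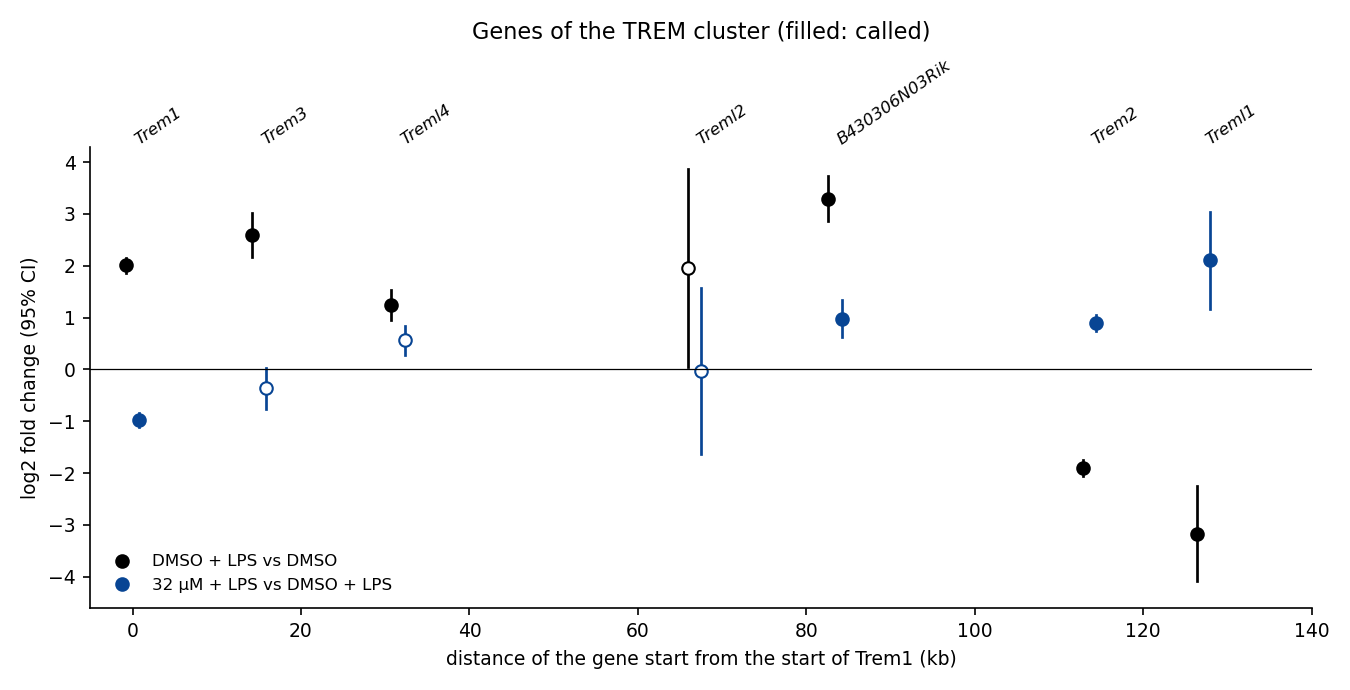
Log2 fold change with its 95% confidence interval (y axis) of the genes of the TREM cluster against the distance of their start from the start of Trem1 (x axis, kb), for LPS in black and 32 µM against DMSO + LPS in blue, filled where called. Trem1, Trem3, Treml4 and B430306N03Rik lie above 0 with LPS, while Trem2 (−1.90) and Treml1 (−3.17) lie below it and above it at 32 µM.

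The 2 other adaptors that serve such receptors were called higher with LPS, beside 14.6% of all genes. Fcer1g, which encodes the Fc receptor γ chain, went from 217.7 and 169.7 to 323.0 and 367.5 CPM (log2 fold change 0.83, edgeR adjusted p = 0.00478). Hcst, which encodes DAP10, a partner of DAP12 in signaling to PI3 kinase, was called as well (log2 fold change 0.71, edgeR adjusted p = 0.00786), and this was lost with library size alone (log2 fold change 0.50, edgeR adjusted p = 0.0303) and without replicate 2 of DMSO (log2 fold change 0.46, edgeR adjusted p = 0.0275). At 32 µM neither was called, and their median log2 fold change was −0.036 against 0.0082 for all genes tested.

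Among 17 other tested receptors that signal through an ITAM, of 20 listed, 10 were called higher and 3 lower with LPS, beside 14.6% and 13.6% of all genes. With library size alone in place of TMM 6 were called higher. Clec4e, which encodes the mycobacterial glycolipid receptor Mincle, rose by 2.51 (edgeR adjusted p = 2.75e-08) and Fcgr3, a low-affinity IgG receptor, fell by 2.32 on the log2 scale (edgeR adjusted p = 5.94e-07). At 32 µM 1 of them was called higher and 5 were called lower, beside 1.27% and 2.91% of all genes. The gene called higher was Treml1, whose product is known to carry an inhibitory motif in its own tail rather than to pair with DAP12, so that it does not do what the list's name says. Those called lower included Fcgr1, the high-affinity IgG receptor, at −1.70 (edgeR adjusted p = 2.04e-05) and Clec4n, which encodes dectin-2, at −0.82 (edgeR adjusted p = 0.000300). The count of genes called lower was 3 without replicate 2 of DMSO + LPS. The median at 32 µM was −0.36, against 0.0082 over all genes tested, and the Sirpb1 and Pilrb paralogs on this list may share reads.

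Of 33 tested kinases and adaptors downstream of the ITAM, 8 were called higher and 3 lower with LPS, near the share of all genes called (28.2%), and with library size alone 6 were called higher and 7 lower. The kinase gene Src rose by 3.09 (edgeR adjusted p = 4.81e-09) and Lcp2, which encodes the scaffold SLP-76, by 1.99 on the log2 scale (edgeR adjusted p = 1.43e-08). At 32 µM only Lcp2 was called, lower by a log2 difference of −0.68 (edgeR adjusted p = 3.30e-05), and the list's median of 0.028 lay near that of all genes, 0.0082. Below the receptors, then, 1 of 33 genes was called at 32 µM, a share of the same order as the 4.18% of all genes.

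Among 18 tested inhibitors of ITAM signaling 3 were called higher and 5 lower with LPS, beside 14.6% and 13.6% of all genes. Pilra, an inhibitory receptor, rose by 3.70 (edgeR adjusted p = 1.37e-06) and Cd33, a sialic acid receptor, fell by 3.37 on the log2 scale (edgeR adjusted p = 5.29e-08). Whether the mouse form of CD33 inhibits such signaling was not tested, so its place on this list is open. At 32 µM Pilra was lower than in DMSO + LPS (log2 fold change −1.40, edgeR adjusted p = 0.00127) and Cd300a, an inhibitory receptor for phospholipids, was higher (log2 fold change 1.34, edgeR adjusted p = 4.04e-06), the 2 calls of the list beside 4.18% of all genes. Cd300a was also called at 10 µM (log2 fold change 0.78, edgeR adjusted p = 0.000348), and stayed called without replicate 1 at 10 µM.

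Of 13 tested genes for proposed TREM ligands and for proteases that cut the receptors, 0 were called higher and 5 lower with LPS, beside 14.6% and 13.6% of all genes. They included Adam10, which encodes a sheddase of TREM2, at −1.08 (edgeR adjusted p = 9.55e-05), Psen2, a γ-secretase subunit, at −1.27 (edgeR adjusted p = 0.000195), and Cd276, proposed as a ligand of TREML2, at −1.62 (edgeR adjusted p = 2.55e-07). Cd276 was the only gene of this list called at 32 µM, beside 4.18% of all genes, and it was higher there than in DMSO + LPS (log2 fold change 0.72, edgeR adjusted p = 0.000189).

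Genes listed as responding to TREM1, mostly cytokines, chemokines and costimulatory molecules, were called higher with LPS in 16 of 16 cases, beside 14.6% of all genes. Their median log2 fold change was 5.70, and 5.43 with Csf2 and Il6, which were at 0 in both DMSO libraries, set to the bound that a floor of 3 counts per library gives. At 32 µM 9 were called lower and 0 higher than in DMSO + LPS, with a median of −1.07, and at 10 µM 6 were called lower, with a median of −0.41. Of all genes 2.91% were called lower at 32 µM and 0.579% at 10 µM. Ccl7 and Ccl2, which encode monocyte chemoattractants, fell by 3.15 (edgeR adjusted p = 3.29e-06) and 2.40 (edgeR adjusted p = 2.27e-07) on the log2 scale at 32 µM. Cxcl2, which encodes a neutrophil chemoattractant, had a value of 0.44 and was not called (edgeR adjusted p = 0.0634). LPS is known to raise such genes through Toll-like receptor 4, and the study picked several of them on the same libraries, so the counts are not independent evidence of a direction.

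Of 17 tested genes known from microglia as dependent on TREM2, 6 were called higher and 2 lower with LPS, beside 14.6% and 13.6% of all genes, and with library size alone 4 were called higher and 5 lower. At 32 µM 0 were called higher and 5 lower, beside 1.27% and 2.91%. Spp1, which encodes osteopontin, was at 2508 ± 0.827 CPM (SD, n = 2) in DMSO + LPS and 853.6 ± 2.06 CPM (SD, n = 2) at 32 µM (log2 fold change −1.56, edgeR adjusted p = 4.07e-07). Csf1, the macrophage growth factor, and Fabp5, a fatty acid carrier, had values of −0.87 (edgeR adjusted p = 0.00282) and −0.84 (edgeR adjusted p = 0.00330). The count of genes called lower with LPS was 1 without any single library other than those of 10 µM, where it was 3, and the call of Cst7 was lost in 8 of these 10 cases. Of 10 tested genes of DAP12-dependent osteoclasts, 4 were called higher with LPS, beside 14.6% of all genes, and 3 lower at 32 µM, beside 2.91% of all genes, among them Mmp9, a matrix protease, at −1.42 (edgeR adjusted p = 0.000173).

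The genes whose levels over the 10 libraries were most like those of each member are given as a description, from 9562 genes with a mean of at least 5 CPM. All share the same libraries and the LPS contrast, which puts high correlations on many genes. Nearest to Trem1 were Lcp1, Fcgr2b and Upp1 (Pearson r = 0.997 each). Nearest to Trem2 were C130050O18Rik (r = 0.997), Cd276 (r = 0.995) and Ube2c (r = 0.994), and nearest to Treml4 were Jrk (r = 0.992), Prdx1 (r = 0.99) and Fcrl1 (r = 0.989). For Syk they were Dusp16 (r = 0.999), Cflar and C3 (r = 0.998 each), and for Clec5a they were Ccr2 (r = 0.983), Ppm1l (r = 0.98) and Abr (r = 0.975). Tyrobp was most like Polr2f (r = 0.987), Crip1 (r = 0.984) and S100a4 (r = 0.982). For Treml2 none is given, since its counts were too low.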

How the data were processed

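RNA sequencing of RAW264.7 cells gave 10 libraries in 5 conditions, 2 each, grouped by their labels. The deposited values were whole-number counts per Ensembl gene, not normalized by the authors. The submitters' processing notes name Trimmomatic, FastQC, STAR, DESeq2 and mm10. Versions, the counting tool and the use of strand in counting are not given in the sources used here. Of 43432 genes, 19292 had 0 counts in every library. Symbols and positions came from GENCODE M21 (GRCm38), which matched 42548 IDs, and promoters from RefSeq (GRCm38.p6).

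Counts were scaled by TMM and fitted with edgeR 4.0.16 (R 4.3.3), with 1 mean per condition over all 10 libraries and 5 residual degrees of freedom. filterByExpr at a minimum count of 10 left 14172 genes, over which p-values from the quasi-likelihood test were adjusted by Benjamini and Hochberg. A gene was called at a 1.5-fold change with an adjusted p below 0.05. The common biological coefficient of variation was 0.128. Spread was estimated over all conditions together, while replicates differed more in some of them. As a measure of this, chi-square per degree of freedom between replicates was 3.37 at 3.2 µM and 6.24 in DMSO + LPS. It was 40.2 in DMSO, 50.3 at 10 µM and 190 at 32 µM, so p-values at 32 µM do not rest on that condition's own spread alone. Exact permutation of 2 against 2 libraries cannot go below p = 0.333, so no such test is given. Depth was 45966803 to 58976377 counts per library. DESeq2 1.42.0 and 19 other alternatives were run. In simulated data for 32 µM against DMSO + LPS (13723 genes), 87 of 100 genes changed 2-fold and 99 of 100 changed 3-fold were recovered, with 13 false calls. The changed genes were drawn from those above 2 CPM in DMSO + LPS, and genes varied independently within a library. These figures therefore do not cover genes as low as Treml2 or shifts shared by many genes, such as that of the short-transcript score.

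The 7 genes and the gene lists were chosen with earlier results of these data known. Named were the 7 genes and, in each list and comparison, up to 3 called genes with the largest change among those with a mean of at least 5 CPM, of which some were left out for brevity and 1 is not reported here. Genes of the TREM cluster, Cxcl2, Csf2, Cst7 and Hcst were named after their values were seen.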

Additional observations from a re-analysis of the deposited data

Results flagged for a closer look

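The effects of 2 doses differed by a direct test of one dose against the other in 3 cases. Trem1 was lower at 32 than at 10 µM (log2 difference −0.45, edgeR adjusted p = 0.00823) and lower at 10 than at 3.2 µM (−0.41, edgeR adjusted p = 0.0291). Trem2 was higher at 32 than at 10 µM (0.35, edgeR adjusted p = 0.0352). Both libraries of the higher dose lay beyond both of the lower dose in each case, as they did for 32.6% of all genes between 32 and 10 µM and for 34.2% between 10 and 3.2 µM, and every difference was under 1.5-fold. With 1 library left out, the adjusted p was not below 0.05 in 2, 9 and 8 of 10 cases for these 3 differences in turn. Over all alternatives the adjusted p for 32 against 10 µM ran from 0.000199 to 0.300 for Trem1 and from 2.78e-06 to 0.429 for Trem2.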

How the results depend on the processing

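Of 200 alternative values for the 10 called differences of the 7 genes, 197 stayed called, 0 changed sign and 3 were lost, all at the 2-fold cutoff, which left 0 of the 7 genes called at 32 µM against DMSO + LPS. At 32 µM Trem2 ranged from 0.81 to 0.96 on the log2 scale, and the adjusted p of Trem1 from 3.64e-23 to 0.00134. Leaving out 1 library at a time gave 2 to 3 genes called at 32 µM and 0 to 1 at 10 µM. With LPS 5 of the 7 genes were called by the likelihood ratio test, which added Treml2, and 6 with the short-transcript score, which added Treml2 and Tyrobp; for 32 µM against DMSO 5 were called in both settings and 3 at the 2-fold cutoff. Among called genes of the lists, 3355 of 3568 values stayed called and 0 changed sign.

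Changes of sign arose in differences that were not called, and the cause was not tested. With 1 library left out, Tyrobp ranged from −0.65 to 0.051 with LPS, −0.47 to 0.28 at 32 µM, −0.23 to 0.405 at 10 µM, −0.61 to 0.18 for 32 against 10 µM, −0.48 to 0.17 for 10 against 3.2 µM and −0.81 to 0.0034 for 32 µM against DMSO. With the short-transcript score in the fit Tyrobp was 0.048 at 32 µM, −0.027 at 10 µM, −0.0073 at 3.2 µM and 0.075 for 32 against 10 µM. Treml2 ranged from −1.01 to 0.57 at 32 µM, −0.21 to 0.425 at 3.2 µM and −0.22 to 1.35 for 32 against 10 µM. Clec5a ranged from −0.095 to 0.088 at 10 µM, where it was −0.010 with no count filter, and from −0.14 to 0.027 for 10 against 3.2 µM, and was −0.047 against DMSO at 32 µM with library size alone. Treml4 ranged from −0.013 to 0.25 at 3.2 µM, and Syk from −0.076 to 8.54e-05 at 3.2 µM and from −0.090 to 0.017 for 32 against 10 µM.

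Over all genes the counts moved by more than 1.5 times in several settings. At the 2-fold cutoff they were 2426 of 3995 with LPS, 317 of 592 at 32 µM, 36 of 122 at 10 µM, 63 of 187 for 32 against 10 µM, 8 of 36 for 10 against 3.2 µM and 2245 of 3847 for 32 µM against DMSO. A mean of at least 5 CPM tested fewer genes and gave 2641 with LPS and 2547 for 32 µM against DMSO. On the 4 libraries compared edgeR called 41 at 10 µM, 66 at 3.2 µM, 5 for 32 against 10 µM and 0 for 10 against 3.2 µM. With the short-transcript score it called 227 at 10 µM, 5 at 3.2 µM and 100 for 10 against 3.2 µM. The likelihood ratio test called 61 for 10 against 3.2 µM and 3 at 3.2 µM, where DESeq2 called 8 and no count filter 1. Leaving out 1 library gave 52 to 227 at 10 µM and 5 to 66 for 10 against 3.2 µM.

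The labels do not tie equal replicate numbers together, and deviations of same-numbered libraries correlated between −0.169 and 0.573 over pairs of conditions. With a replicate block 4 of the 7 genes were called with LPS, 2 at 32 µM and 0 at 10 µM, as without it, and 616 genes in all at 32 µM. With 2 libraries a condition, Treml2 at 1 to 14 counts and Tyrobp with its spread give intervals too wide for changes of 1.5-fold.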
